A study of Drosophila melanogaster with 12 samples.

Results

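Females mutant for the p24 protein Logjam (*loj*) were set against control females in the head and thorax, and the genes that changed were sorted by function and by whether they belong mainly to this region of the body. The comparison uses 6 of the 12 arrays of the series, 3 *loj* and 3 control samples, and all 18769 probe sets that are not array controls. Every array was an Affymetrix Drosophila Genome 2.0 array hybridized with RNA of heads and thoraces of 12 females that had mated once with a wild-type male on day 4 and were dissected 3 h later. The *loj* females carried the alleles loj 00898 and loj 04026 over each other. The control was not a wild-type strain, since each control sample pooled 6 loj 00898/+ and 6 loj 04026/+ females, so that all flies on these arrays carried at least 1 mutant allele. Each sample was a separate RNA extraction.

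p24 proteins sit in the membranes of the early secretory pathway, where they are held to sort cargo into the vesicles that move between the endoplasmic reticulum and the Golgi. In Drosophila females *loj* is known for its role in egg laying, and it is expressed in the nervous system as well as in the abdomen. The head and thorax of a fly hold the brain and the thoracic ganglion, the eyes, the antennae and other sense organs, the flight muscle, and fat body, and fat body makes most of the antimicrobial peptides of the blood. In RNA of a whole body part, fewer cells of a type and less RNA per cell cannot be told apart.

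A value is a probe set intensity on a linear scale. The log2 of the intensity, with 1 as the lowest value allowed, was compared between groups with limma, and a probe set was called at a Benjamini-Hochberg adjusted p under 0.05 over all 18769 probe sets and a change of at least 1.5-fold. A group is termed at background where none of its 3 arrays exceeded the level of bacterial control probe sets on that array. This level was 126 to 236 on the *loj* arrays and 206 to 256 on the control arrays. Where 1 group was at background its true level is only bounded, and the fold printed as a minimum sets the mean of the other group against that level. Median intensities were 145 to 160 on the *loj* arrays and 145 to 153 on the control arrays. The log2 ratio of the 3' to the 5' control probe set of *Act5C*, a measure of RNA integrity, was 0.79 to 1.02 on the *loj* arrays and 1.33 to 1.44 on the control arrays (exact two-sided permutation test, p = 0.1, the smallest that 3 against 3 arrays can give). The same ratio of an older GAPDH set was also lower in *loj*, with means of 0.441 in *loj* and 0.526 in control. That of a newer GAPDH set went the other way, with means of 1.41 in *loj* and 1.28 in control. For the actin and eIF-4a sets the arrays of the groups overlapped, with means of 1.55 and 0.79 in *loj* and 1.75 and 0.862 in control. All of these ratios but that of the newer GAPDH set were therefore lower on average in *loj*. The 18S ribosomal RNA control intensity was 7694, 1116 and 1221 on the *loj* arrays and 611, 814 and 819 on the control arrays. The part of these differences in the results was not tested.

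The markers of the labelled tissues were present. The neuronal genes *nSyb* and *ChAT* had mean intensities of 921 and 1265 in control head/thorax and of -13.4 and 3.57 in control abdomens, the photoreceptor genes *trp* and *Arr1* 3710.4 and 13462 against 3.05 and 12.8, and the flight muscle gene *fln* 9781 against 40.2. None of these genes passed the test between *loj* and control. Of 13 eggshell genes 0 were above background in head/thorax, and of 11 germline genes 3 were (*grk*, *gcl* and *piwi*). Of 17 midgut enzyme genes 11 were above background in head/thorax, with mean intensities for *alphaTry* of 14218 in control head/thorax and 13347 in control abdomens, and for *Jon65Aiv* of 11289 in control head/thorax and 11222 in control abdomens. None of the genes of these 3 lists was called between *loj* and control, and their part in the results was not tested.

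Between *loj* and control head/thorax 204 probe sets were higher in *loj* (1.09% of those tested) and 146 lower (0.778%), 1.86% in either direction. The groups did not overlap in any of the 350 calls, as they did not in 23.8% of all probe sets. Where a called gene is described below as without overlap, this is therefore no further support for it. Changes were mostly modest: 92 of the higher and 78 of the lower calls were under 2-fold. In 18 of the higher and 36 of the lower calls neither group was above background. The calls depended on single arrays and on whether samples with the same replicate number are taken as pairs. With replicate number as a block 77 probe sets were called higher and 58 lower (0.41% and 0.309%), among them 71 and 57 of the calls without it. Leaving out 1 array cut the higher and lower calls to 50 and 43 (control replicate 1), 62 and 61 (control replicate 3), 63 and 49 (*loj* replicate 2) and 81 and 76 (control replicate 2). In total 37 higher and 30 lower probe sets (0.197% and 0.16% of those tested) were called in every one of these fits, with the block and without each of the 6 arrays in turn, and genes among them are termed stable below.

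The gene *loj* itself checked the labels. Its intensity was 40.3, 32.8 and 30.9 in *loj* and 1219.7, 1152 and 1034 in control head/thorax (at least 6.97-fold lower, log2 fold change of the measured values -5.04 ± 0.13 SE, adjusted p = 0.000152). All 3 *loj* arrays were at background. The other p24 genes measured, *eca*, *bai*, *CHOp24* and *opm*, were not called, and *eca* was 2673, 2624 and 2785 in *loj* and 2630.4, 2434 and 2467 in control (log2 fold change 0.10, adjusted p = 0.318). None of 35 measured genes within 25 genes of *loj* on either side, in the gene order of RefSeq, was called on any probe set. Of 137 within 100 genes 2 were called higher and 3 lower on any probe set, among them *Ldh* and *CG18586*. This was 3.65%, beside 1.45% higher and 1.02% lower of all genes counted alike. Over whole chromosome arms genes were counted by their brightest probe set. Arm 3L, which carries *loj*, held 19.7% of the genes placed on the genome, 27% of the lower genes and 15.6% of the higher ones. Arm 2R held 20.4% of the placed genes, 16.2% of the lower genes and 29.3% of the higher ones. The part of linkage to *loj* in these shares was not tested.

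Among stable calls above background in at least 1 group, the largest decreases after *loj* were those of *UGP*, *CG8768*, *CG31205* and *teq*. *UGP*, which makes the UDP-glucose used for glycogen and trehalose, was 75.4, 72.5 and 70.2 in *loj* and 1461, 1520.5 and 1484 in control head/thorax, at least 9.15-fold lower (log2 fold change -4.36 ± 0.06, adjusted p = 9.74e-06). *CG8768* was 112, 112 and 94.5 in *loj* and 1264, 1083 and 1164 in control (at least 7.18-fold lower, adjusted p = 0.000167). Both genes were at background on every *loj* array and well above it on every control array. *CG31205* was 280.2, 329 and 292 in *loj* and 3827, 2824 and 2473 in control (log2 fold change -3.32 ± 0.17, adjusted p = 0.00143). The secreted serine protease gene *teq*, known for a part in long-term memory, was 517, 586 and 423 in *loj* and 4373, 4639 and 3954 in control (log2 fold change -3.10 ± 0.13, adjusted p = 0.000711). The decrease of *teq* held for 1 of its probe sets only. The other was 538, 478 and 428 in *loj* and 301, 317 and 264 in control, a call in the opposite direction (log2 fold change 0.71, adjusted p = 0.0322, and 0.0569 with the block). It was the only gene with calls in both directions among 44 called genes with several probe sets, of which 8 were called on every probe set.

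Further stable decreases were smaller. The protein kinase gene *Hipk* was 353, 397 and 397 in *loj* and 1402, 1380.4 and 1239 in control (log2 fold change -1.81, adjusted p = 0.000711), and the RING finger gene *Rnf11* 259.6, 252 and 242 in *loj* and 1000.2, 716 and 756 in control (log2 fold change -1.70, adjusted p = 0.00518). The second probe set of *Rnf11* was also called lower (log2 fold change -1.10, adjusted p = 0.0215, and 0.067 with the block). *CARPB*, which encodes a carbonic anhydrase-related protein, was 185, 175 and 175 in *loj* and 563, 501 and 594 in control (log2 fold change -1.63, adjusted p = 0.00149). The noncoding RNA of the alphagamma element, *CR32865*, a repeat at a heat shock locus, was 154, 201 and 164 in *loj* and 656, 644 and 534 in control (log2 fold change -1.83, adjusted p = 0.00387). The probe set of *ND-B8*, a subunit of complex I of the respiratory chain, was among the tightest, with 1722, 1685 and 1776 in *loj* and 4031, 3948 and 4062 in control (log2 fold change -1.22 ± 0.035, adjusted p = 0.000167), and it was below 0 on all 6 abdomen arrays. *CG42788* and *CG15695* fell by 1.27 each on the log2 scale, to means of 487 and 107 in *loj*, against 1179.7 and 257 in control.

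Among the stable increases of genes above background in at least 1 group, *E(spl)m5-HLH* had the highest bound. *E(spl)m5-HLH*, a transcriptional repressor of the Notch pathway, was 3429, 3748 and 4642 in *loj* and 62.6, 74.7 and 78.7 in control head/thorax, at least 17.4-fold higher (log2 fold change of the measured values 5.77 ± 0.14, adjusted p = 0.00015). The gene was at background on every control array. *CG31955* was 1038, 1067 and 1379 in *loj* and 167, 122 and 148 in control (at least 5.14-fold higher, adjusted p = 0.00152), and *CG30287* 323, 424 and 444 in *loj* and 37.9, 56.4 and 46.3 in control (at least 1.75-fold higher, adjusted p = 0.0027). *CG30087* was above background only on *loj* replicate 2 (54.7, 169 and 172 in *loj* and -8.09, 1.7 and 0.809 in control), and no fold is given. The 3 *loj* arrays of *CG31955* and *CG30287* lay clear of the controls, as did those of *E(spl)m5-HLH* and of every other call. *CG10383* was 2830.1, 4222 and 4026 in *loj* and 787, 801 and 828 in control (log2 fold change 2.18 ± 0.15, adjusted p = 0.00363).

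**Figure D1:**
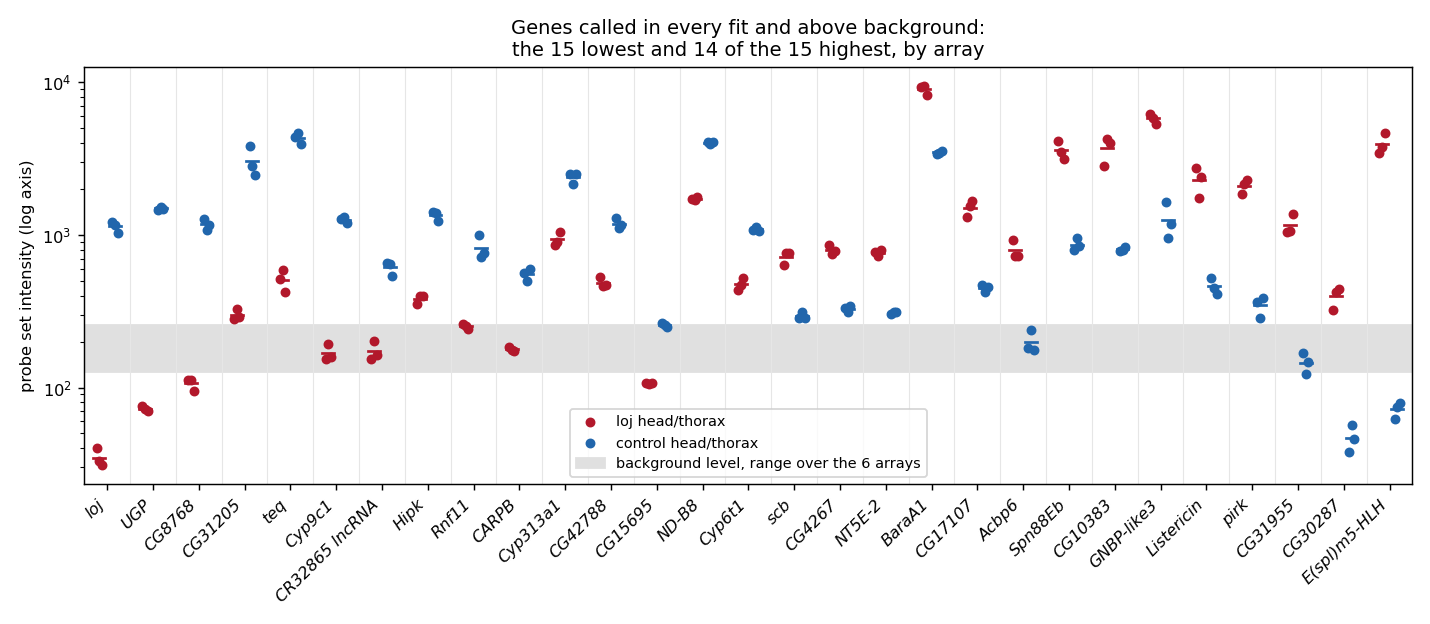
Probe set intensity (log axis) on each head/thorax array for genes called in every fit and above background in at least 1 group, ordered from the lowest to the highest log2 fold change, with *loj* arrays (red) left of control arrays (blue), a line at each mean and the range of the background level in grey. The 15 lowest run from *loj* to *Cyp6t1* and the 14 highest from *scb* to *E(spl)m5-HLH*; *CG30087* was left out because its control arrays are at or near 0.

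Several of the other stable increases are genes of defence and of the blood. *pirk*, an inhibitor of the Imd immune pathway, was 1846, 2159 and 2292 in *loj* and 366, 287 and 388 in control (log2 fold change 2.60 ± 0.14, adjusted p = 0.00152). *Listericin*, an antibacterial gene, was 2751, 1745 and 2381 in *loj* and 518, 448 and 412 in control (log2 fold change 2.30, adjusted p = 0.0053). *GNBP-like3*, related to glucan-binding recognition proteins, was 6210.2, 5812 and 5335 in *loj* and 1637, 954 and 1186 in control (log2 fold change 2.23, adjusted p = 0.00714). The serpin *Spn88Eb*, of a family of protease inhibitors, was 3587 ± 485 in *loj* and 861 ± 79 in control (SD, n = 3 each, log2 fold change 2.05). The peptide precursor gene *BaraA1* was 9011 ± 664 in *loj* and 3469 ± 91.9 in control (log2 fold change 1.37). In these 5 genes, as in every higher call, the lowest *loj* array was above the highest control array. The integrin alpha chain gene *scb* (log2 fold change 1.27), the nucleotidase gene *NT5E-2* (1.31), *CG17107* (1.75) and *CG4267* (1.28) completed the 15 highest above background, together with *Acbp6*, given with the fat body genes. Other genes called in every fit, *CG31265* (lower) and *CG18586* (higher) among them, had both groups at background.

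A probe set was counted as mainly head/thorax where its mean over the control head/thorax arrays was at least 4 times its mean over the control abdomen arrays. This held for 2638 of 18769 probe sets (14.1%), for 64 of the 146 lower calls (43.8%) and for 48 of the 204 higher calls (23.5%). Conversely, 2.43% of mainly head/thorax probe sets were called lower and 1.82% higher, against 0.778% and 1.09% of all. Among probe sets above background in at least 1 group the class made up 50.9% of 110 lower calls, 25.3% of 186 higher calls and 20.8% of all 10095. The class shares the control head/thorax arrays with the comparison, so that a probe set measured high on those arrays is moved toward both the class and a lower call. When the class was taken from the *loj* arrays instead, which shares the arrays of the other group, it held 31.5% of lower calls, 30.9% of higher calls and 13.6% of all. Under either definition both kinds of call held more of the class than all probe sets did, and the shares of lower and higher calls lay much closer together with the class from the *loj* arrays. At 8 times in place of 4 times, by the control arrays, the class held 26.7% of lower calls, 7.35% of higher calls and 7.61% of all, so that higher calls no longer held more of it than all probe sets. Among probe sets above background in at least 1 group, the excess of higher calls was also nearly absent with means under background raised to it. The class then held 13.98% of higher calls and 13.69% of all. After scaling to a common median it held 15.05% of higher calls and 14.88% of all. Lower calls still held more of the class than all probe sets in both settings. Mainly abdomen probe sets, at most 1 to 4 by the control arrays, were 4.79% of lower calls, 10.8% of higher calls and 6.97% of all. By the *loj* arrays the order was reversed, at 10.3% of lower calls, 1.96% of higher calls and 6.91% of all. The direction of this difference therefore depends on which arrays define the class.

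**Figure D2:**
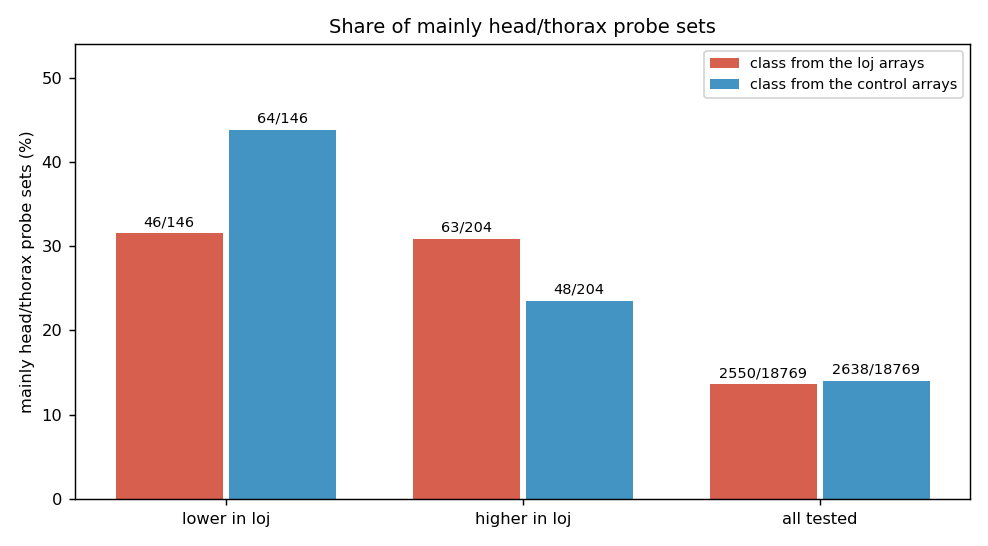
Percent of probe sets whose mean intensity in head/thorax was at least 4 times that in abdomen, among calls lower in *loj*, calls higher in *loj* and all probe sets tested, with the class taken from *loj* arrays (red, left) or control arrays (blue, right) and the counts above the bars. Lower and higher calls stand at 31.5% and 30.9% with the *loj* arrays and at 43.8% and 23.5% with the control arrays.

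Among mainly head/thorax calls above background in at least 1 group, the 10 lowest were *UGP*, *CG8768*, *CG31205*, *teq*, *Cyp9c1* and *CR32865*, which are stable, and *phu*, *CG11294*, *CG31323* and *Med*, which are not. The alkaline phosphatase gene *phu* was 335, 202 and 468 in *loj* and 2269, 1039 and 1390.2 in control (log2 fold change -2.23, adjusted p = 0.045, and 0.065 with the block), and the call was lost without any 1 of the 6 arrays (adjusted p up to 0.135). *Med*, the Smad of the BMP and activin pathways, was 304, 345 and 391 in *loj* and 884, 1524 and 1339 in control (log2 fold change -1.82, adjusted p = 0.0154), a call lost without *loj* replicate 2, control replicate 2 or control replicate 3 (adjusted p up to 0.0718). The 10 highest of the same kind were *CG30098*, *Spn28Dc*, *Lcp1*, *Nrk*, *GNBP-like3*, *Spn88Eb*, *CG34054*, *BomBc1*, *CG17107* and *CtsL3*. Of these *CG30098* was 1374, 2459 and 2813 in *loj* and 283, 164 and 199 in control (log2 fold change 3.34 ± 0.32, adjusted p = 0.00952), and its call was lost with the block (0.065) and without *loj* replicate 2 or control replicate 3 (up to 0.0521). *Spn28Dc*, a serpin of the melanization pathway, spread widely in *loj*, at 1509, 2278 and 5412, against 466, 477 and 437 in control (log2 fold change 2.53, adjusted p = 0.0444, and 0.105 with the block), and was not called without *loj* replicate 2, control replicate 1, control replicate 2 or control replicate 3. The groups did not overlap in any of these 20 genes, which held for all calls.

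Of the sensory genes, the odorant-binding proteins changed most often. These small proteins are secreted into the fluid around olfactory and taste neurons, where they bind odorants. Of 50 measured, 31 above background, 7 were called lower and 1 higher (0.923% of all 12028 genes, each represented by its brightest probe set, were called lower and 1.39% higher), while the median log2 fold change over the 50 was -0.02, as over all genes. The 7 that fell were *Obp84a*, *Obp69a*, *Os-C*, *Obp83a*, *Obp83b*, *Obp19a* and *Obp28a*, all of which are known from the antenna and all of which were mainly head/thorax. *Obp83a* was 1528, 1470.4 and 1503 in *loj* and 2303, 2243 and 2517 in control (log2 fold change -0.65 ± 0.053, adjusted p = 0.00577) and was the stable one. *Os-C* was 1441, 1345 and 1536 in *loj* and 2519, 2259 and 2796 in control (log2 fold change -0.81 ± 0.091, adjusted p = 0.0134). *Obp69a* was 650.1, 631 and 712 in *loj* and 1409, 1153 and 1493 in control (log2 fold change -1.02 ± 0.11, adjusted p = 0.0112). In each of the 3 the highest *loj* array stayed below the lowest control array, and the calls of *Os-C* and *Obp69a* held with the block (0.0282 and 0.0312) but not without *loj* replicate 2 or control replicate 1 (adjusted p up to 0.0723 and 0.0655). *Obp84a* was 204, 218 and 211 in *loj* and 500.1, 396 and 489 in control (log2 fold change -1.12 ± 0.11, adjusted p = 0.00887, 0.0555 with the block and 0.0521 without control replicate 1). *Obp83b* (-0.64), *Obp19a* (-0.63, with its second probe set at -0.69) and *Obp28a* (-0.62) fell by a similar amount on the log2 scale, with adjusted p of 0.0191, 0.0146 and 0.0168 and of 0.0932, 0.0622 and 0.0904 with the block. Each of these 3 calls was lost without *loj* replicate 2, control replicate 1 or control replicate 3, and those of *Obp83b* and *Obp28a* also without *loj* replicate 3 (adjusted p up to 0.0895). The count of 7 became 3 with the block, 1 without control replicate 1, 2 without *loj* replicate 2 and 4 without control replicate 3.

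Odorant-binding protein genes of higher intensity were not called. *Obp99c*, *Obp19d* and *Obp18a*, at control means of 12249.7, 8517 and 3500, had log2 fold changes of -0.027, -0.0044 and 0.071, and their groups overlapped. *lush*, which is needed to sense a male pheromone, was 412, 447 and 469 in *loj* and 647, 559.7 and 721 in control and did not pass the test (log2 fold change -0.53, adjusted p = 0.0603). *Obp57a*, a taste gene, was 2497, 2923 and 3061 in *loj* and 4389, 4231 and 3950.1 in control and fell just short of 1.5-fold (log2 fold change -0.57, adjusted p = 0.0287). The 1 higher gene, *Obp56h*, was 115, 178 and 179 in *loj* and at background in control (55.9, 67.9 and 53.6, adjusted p = 0.0344, and 0.0837 with the block), and its call was lost without *loj* replicate 2, *loj* replicate 3, control replicate 1, control replicate 2 or control replicate 3.

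**Figure D3:**
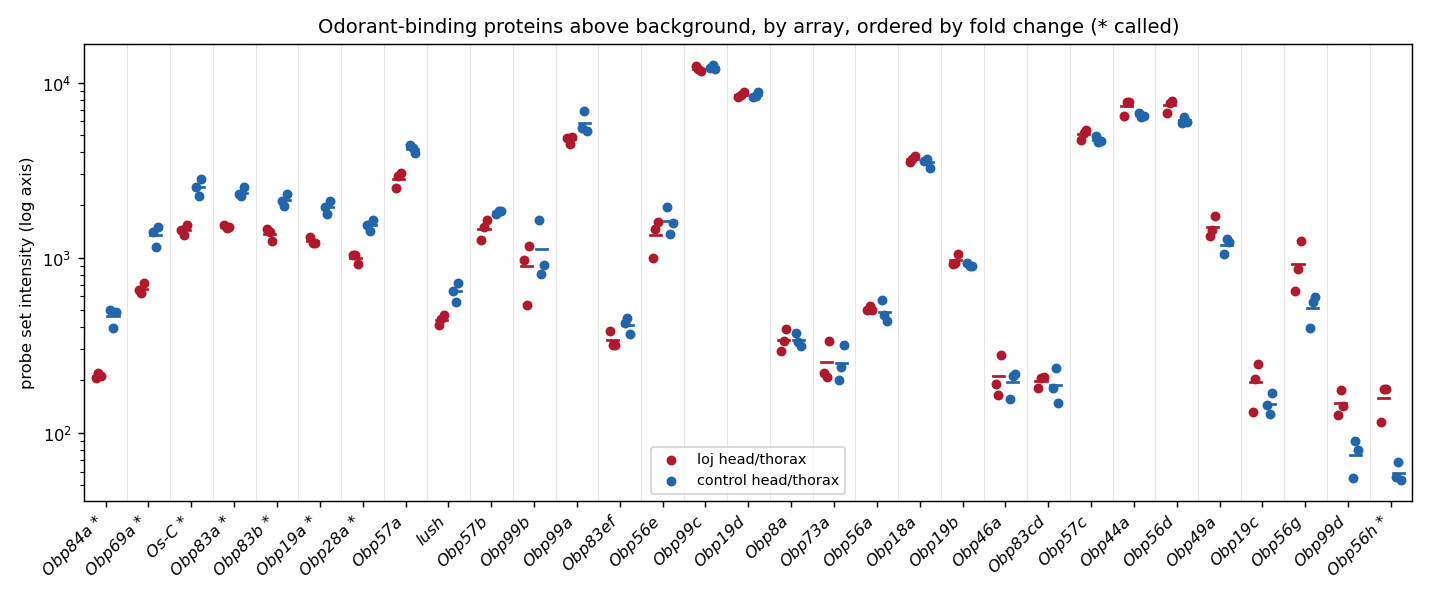
Probe set intensity (log axis) on each head/thorax array for the 31 odorant-binding protein genes above background, ordered from the lowest to the highest log2 fold change, *loj* (red) left of control (blue), with a line at each mean and an asterisk for called genes. The 7 genes at the left are below control on every *loj* array, while the arrays of *Obp99c* and *Obp19d*, the brightest, overlap.

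Genes of the antenna outside that list were looked up after these values were seen. The first 3 given here were all called, and antennal genes that were not called are not counted. These 3 are therefore no further support for a decrease in the antenna. *a10*, which encodes another abundant secreted antennal protein, was 1978, 1893 and 2322 in *loj* and 3426, 3306 and 3861 in control (log2 fold change -0.78 ± 0.10, adjusted p = 0.0167, and 0.0282 with the block). *Antdh*, the antennal dehydrogenase, was 685, 733 and 676 in *loj* and 1198, 1098 and 1386 in control (log2 fold change -0.81, adjusted p = 0.0138, and 0.0753 with the block). *Jhedup*, an esterase that degrades odorants, was 651, 702 and 714 in *loj* and 1094, 946 and 1090.2 in control (log2 fold change -0.60, adjusted p = 0.0169, and 0.077 with the block). All 3 were mainly head/thorax, and in each, as in every call, the groups did not overlap. The calls were lost without *loj* replicate 2, control replicate 1, control replicate 2 or control replicate 3 for *a10*, without *loj* replicate 2 or control replicate 1 for *Antdh* and without *loj* replicate 1, *loj* replicate 2, control replicate 1 or control replicate 3 for *Jhedup* (adjusted p up to 0.0793, 0.0708 and 0.0835). The receptors could hardly be read: of 59 odorant receptor genes 4 were above background, and the co-receptor gene *Orco* (107, 94.7 and 111 in *loj* and 180.5, 154 and 176 in control, log2 fold change -0.71, adjusted p = 0.0415, and 0.0864 with the block) and *Or10a* (3.98, 6.19 and 6.73 in *loj* and 17.7, 21.2 and 19.3 in control) were called lower with both groups at background. Of 56 gustatory receptors, 80 ionotropic receptors and ppk channels, 12 secreted CheA and CheB proteins and 10 genes of mechanosensory organs, 0 were called, with 6, 13, 7 and 4 above background. Beside these receptor counts, 1.39% of all genes were called higher and 0.923% lower.

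Of 54 eye genes 0 were called higher and 1 lower, beside 1.39% higher and 0.923% lower of all genes. Photoreceptors turn light into a current through a G protein, phospholipase C and the channels *trp* and *trpl*. Of 20 phototransduction genes, all above background and 16 of them mainly head/thorax, 0 were called in either direction, and their log2 fold changes ran from -0.49 to 0.45. *trp* was 3901, 3264 and 3516 in *loj* and 3579.6, 3857 and 3694 in control (log2 fold change -0.063 ± 0.072, adjusted p = 0.72), and *Arr1*, which quenches rhodopsin, 13139, 13209 and 12923 in *loj* and 13503, 13545 and 13339 in control. The *trpl* arrays overlapped, at 6109, 4786 and 4356 in *loj* and 5808, 6338 and 5715 in control (log2 fold change -0.24, adjusted p = 0.405). The outermost genes were *rdgB*, a phospholipid transfer protein (log2 fold change -0.49, adjusted p = 0.0282), and *laza*, a lipid phosphatase (0.45, adjusted p = 0.0204), both under 1.5-fold. A dimmer probe set of the G protein gene *Galphaq* was called lower (212, 201 and 208 in *loj* and 399.9, 305 and 369.6 in control, adjusted p = 0.0254, and 0.0663 with the block), while its brightest was not called (4627, 4322 and 4413 in *loj* and 4483, 4642 and 4506 in control). Of 15 genes of eye pigments and 13 of photoreceptor identity and lens 0 were called. The pigment transporter gene *bw* was 252, 249 and 224 in *loj* and 279, 248 and 254 in control, and *st* 166, 216 and 233 in *loj* and 154, 168 and 166 in control.

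The exception among eye genes was *ninaD*, the scavenger receptor that takes up carotenoids for visual pigment. It was 14.9, 19.9 and 28.6 in *loj* and 242, 249 and 485 in control, at least 1.89-fold lower (log2 fold change of the measured values -3.92 ± 0.37, adjusted p = 0.00894, and 0.0282 with the block). All 3 *loj* arrays were at background and all 3 control arrays above it. Without *loj* replicate 2 the adjusted p was 0.0508. Its mean was 325 in control head/thorax and 255 in control abdomens, so it was not a mainly head/thorax gene. The other 5 carotenoid and retinoid genes were not called. *santa-maria*, another scavenger receptor, was 1763, 1861 and 1770.3 in *loj* and 2028, 1885 and 1799.6 in control, and *ninaB*, which cleaves carotene, 703, 728 and 809 in *loj* and 674, 633 and 655 in control.

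Over 9 nerve lists with 169 genes, 144 of them above background, 2 genes were called higher and 1 lower, a share near that of all genes (1.39% higher and 0.923% lower), and 95.1% of those above background were within 1.5-fold, against 93.6% of all genes above background. All 11 pan-neuronal genes lay between -0.23 and 0.10 on the log2 scale, among them *elav* (468, 543 and 409.8 in *loj* and 479.8, 538 and 407 in control) and *nSyb* (1012, 941 and 794 in *loj* and 916, 982 and 866 in control). None of 17 genes of transmitter synthesis and transport, 34 transmitter receptors, 36 neuropeptides and their processing, 11 clock genes or 11 glial genes was called. *VAChT*, which loads acetylcholine into vesicles, was below control on every array, at 597, 582 and 584 in *loj* and 765, 777 and 718 in control, and passed the test but not 1.5-fold (log2 fold change -0.36 ± 0.049, adjusted p = 0.0219). The neuropeptide gene *Pdf* was 1393, 1369 and 1411 in *loj* and 1643, 1384 and 1663 in control, and *sNPF* 1179.8, 1042 and 1311 in *loj* and 1254, 1193 and 1248 in control. The arrays of both genes overlapped.

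The lower nerve gene was *Ork1*, a potassium leak channel that sets resting excitability. It was 445, 433 and 492 in *loj* and 921, 964 and 959.8 in control (log2 fold change -1.06 ± 0.063, adjusted p = 0.00203), a stable call, and it was not mainly a head/thorax gene, with a control mean of 948 there and 2386 in abdomen. No other gene of the list of voltage-gated and potassium channels was called, and the sodium channel gene *para* was 154, 179 and 141 in *loj* and 166, 159 and 162 in control. The 2 higher genes were *cac*, the calcium channel of transmitter release, and *Arc1*, a gene that neuronal activity induces. *cac* was 799.8, 612 and 567 in *loj* and 346, 356 and 358 in control (log2 fold change 0.89, adjusted p = 0.0274, and 0.0874 with the block). *Arc1* was 11649, 12192 and 13231 in *loj* and 6789, 8922 and 7778 in control (log2 fold change 0.67, adjusted p = 0.0336, and 0.0756 with the block), while its neighbour *Arc2* spread from 404 to 1439 in *loj* (control 525, 506 and 431) and did not pass. As in every call, the groups did not overlap in *cac* or *Arc1*. The call of *cac* was lost without *loj* replicate 2, control replicate 1, control replicate 2 or control replicate 3 and that of *Arc1* without *loj* replicate 1, *loj* replicate 2, *loj* replicate 3, control replicate 1 or control replicate 3 (adjusted p up to 0.12 and 0.121).

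In muscle 97.8% of the listed genes were within 1.5-fold of control, beside 93.6% of all genes above background. Of 26 sarcomere genes, 23 of them mainly head/thorax, 0 were called, and log2 fold changes ran from -0.17 to 0.30. The actin gene *Act79B* was 9474, 9118 and 8671 in *loj* and 8737, 9122 and 8734 in control, and flightin (*fln*) 9434, 9838 and 9987 in *loj* and 9953, 9607 and 9782 in control. *Act88F*, the flight muscle actin, was 6149.9, 4871 and 5373 in *loj* and 4387, 4482 and 4649.6 in control (log2 fold change 0.27, adjusted p = 0.18). The 8 genes of muscle calcium and phosphagen held 0 calls, with *SERCA* at 13696, 13737 and 13387 in *loj* and 13802, 13729 and 13615 in control. Of 12 glycolytic genes 1 was called higher and 0 lower (1.39% and 0.923% of all genes). It was *Ldh*, lactate dehydrogenase, at 2568, 3437 and 2840.2 in *loj* and 1525, 1559 and 1229 in control (log2 fold change 1.03 ± 0.14, adjusted p = 0.021, and 0.0577 with the block). Its call was lost without *loj* replicate 2, *loj* replicate 3, control replicate 1, control replicate 2 or control replicate 3 (adjusted p up to 0.0833). Of 6 probe sets of the large muscle gene *Msp300*, 1 was called higher (log2 fold change 1.14, adjusted p = 0.0239, and 0.0586 with the block), and of 4 of *Gpdh1* 1 was called lower (-0.63, adjusted p = 0.0215, and 0.105 with the block), while the brightest probe set of each was not called.

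Of the fat body and fuel metabolism genes above background 84.4% were within 1.5-fold, against 93.6% of all genes above background. In the serine, glycine and one-carbon list 10 of 12 genes were higher and 2 lower in *loj*, 6 and 0 of them without overlap. In the lipid list of 30 genes 9 were higher and 7 lower without overlap, beside 23.8% of all probe sets in either direction. Few of these genes were called. Of 72 genes in 4 lists, 4 were called higher and 3 lower (1.39% and 0.923% of all genes), and the list medians were -0.04 for secreted and storage proteins, 0.05 for lipid storage and breakdown, -0.06 for sugar storage and uptake and 0.22 for serine, glycine and one-carbon metabolism, against -0.02 over all genes. *Acbp6*, an acyl-CoA binding protein, was 919, 723 and 732 in *loj* and 183, 236 and 177 in control (log2 fold change 2.00 ± 0.15, adjusted p = 0.0043), a stable call. The lipase gene *CG5966* was 680.3, 1477 and 1472 in *loj* and at background in control (133, 165 and 151), at least 5.08-fold higher (adjusted p = 0.0122), and its call was lost without *loj* replicate 2, control replicate 1, control replicate 2 or control replicate 3 (adjusted p up to 0.0674). *AkhR*, the receptor of adipokinetic hormone that releases stored fuel, was 1466, 1151 and 1637 in *loj* and 2690, 2473 and 2559 in control (log2 fold change -0.87, adjusted p = 0.0274, and 0.065 with the block), and its second probe set was called lower too, with *loj* at background (110.4, 74.4 and 79.9 in *loj* and 358, 305 and 255 in control, at least 1.87-fold lower, adjusted p = 0.0134), a call lost without *loj* replicate 2, control replicate 1 or control replicate 2 (adjusted p up to 0.066). Its brighter probe set was not called without *loj* replicate 1, control replicate 1, control replicate 2 or control replicate 3 (adjusted p up to 0.122). *Jabba*, a lipid droplet protein outside the lists, chosen after its values were seen, was 1293, 1215 and 1358 in *loj* and 2844, 2231 and 2475 in control on 1 probe set (log2 fold change -0.96, adjusted p = 0.0101) and was also called on the other (-0.95, adjusted p = 0.0164, and 0.0537 with the block).

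Of the serine and one-carbon genes, *aay*, phosphoserine phosphatase, was 6629, 7647 and 6704 in *loj* and 3815, 4475 and 3296 in control (log2 fold change 0.86, adjusted p = 0.023), and *Nmdmc*, a mitochondrial folate enzyme, 3713, 5546 and 3883 in *loj* and 2186, 1947 and 2150 in control (log2 fold change 1.04, adjusted p = 0.0295, and 0.105 with the block). The calls were lost without *loj* replicate 2, *loj* replicate 3, control replicate 1 or control replicate 3 for *aay* and without *loj* replicate 3, control replicate 1, control replicate 2 or control replicate 3 for *Nmdmc* (adjusted p up to 0.107 and 0.113). *Gnmt*, glycine N-methyltransferase, had the largest log2 fold change of the list at 1.72 but did not pass (1738, 1691 and 766 in *loj* and 426, 397 and 373 in control, adjusted p = 0.0516). The lipid droplet gene *Lsd-1* (3104, 3776 and 4279 in *loj* and 5776, 5109 and 5333 in control, adjusted p = 0.0778) and the lipase gene *bmm* (2512, 2618 and 2278 in *loj* and 1661, 1974 and 1802 in control, log2 fold change 0.45) were not called. The storage protein gene *Lsp1gamma* was called lower with both groups at background (30.4, 22.1 and 22.5 in *loj* and 103.9, 178 and 95.7 in control), while *Lsp2* was 8515, 9354 and 9146 in *loj* and 5496, 7171 and 7674 in control and did not pass.

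**Figure D4:**
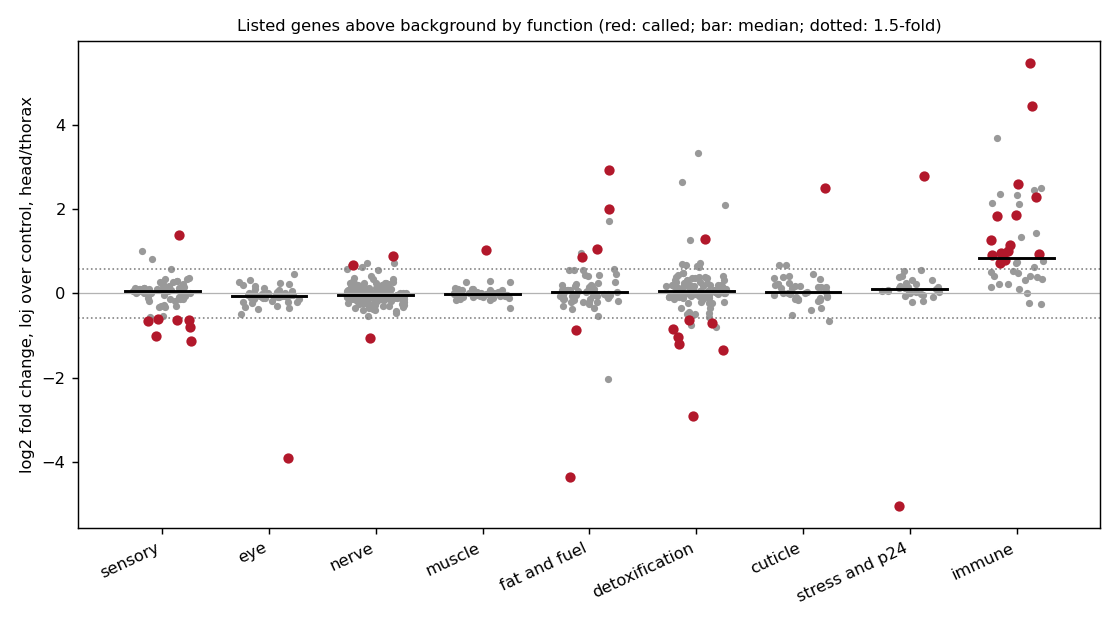
Log2 fold change (*loj* over control, head/thorax) of each listed gene above background, grouped by function, with called genes in red, a bar at the median and dotted lines at 1.5-fold. Muscle, eye and nerve genes lie close to 0, sensory and detoxification genes have a few called genes below it, and the immune genes have a median of 0.85.

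Of 81 cytochrome P450 genes 6 were called lower and 1 higher (0.923% and 1.39% of all genes), with a list median of 0.03. The groups did not overlap for 15 P450 genes lower and 16 higher in *loj*, beside 23.8% of all probe sets in either direction. *Cyp9c1* was 153, 194 and 159 in *loj* and 1273, 1314 and 1187 in control (log2 fold change -2.90 ± 0.10, adjusted p = 0.000409). *Cyp313a1* was 853, 903 and 1045 in *loj* and 2494, 2142 and 2509 in control (adjusted p = 0.00387), and *Cyp6t1* 433, 472 and 521 in *loj* and 1077, 1121 and 1057 in control (adjusted p = 0.00264). These 3 are stable. *Cyp4ac1* was 690, 574 and 561 in *loj* and 1313, 1241 and 1174 in control and was lost only without control replicate 1 (adjusted p = 0.0508). *Cyp4d8* (log2 fold change -0.63) and *Cyp4d1*, at background in both groups, were not called with the block (0.125 and 0.104), nor was the higher gene *Cyp4d21* (524, 434 and 795 in *loj* and 251, 210.2 and 232 in control, adjusted p = 0.0432, and 0.0864 with the block). Without control replicate 1 the lower count was 3. Of 34 glutathione S-transferases 4 were lower and 11 higher in *loj* without overlap (23.8% of all probe sets in either direction). *GstE4* was the only call among them (200.3, 229.5 and 209 in *loj* and 388, 345 and 426 in control, adjusted p = 0.0159, and 0.0828 with the block). Among 35 UDP-glycosyltransferases it was *Ugt301D1* (lower, adjusted p = 0.0149, and 0.0864 with the block). Both calls were lost without *loj* replicate 2, control replicate 1 or control replicate 3, that of *GstE4* also without *loj* replicate 3. *GstD5* was 11.8, 597 and 386 in *loj* and 15.1, 21.7 and 7.94 in control, and *GstD2* 249, 1298 and 1105 in *loj* and 103.9, 80.7 and 173 in control. Both were higher on *loj* replicates 2 and 3 than on *loj* replicate 1, and neither passed.

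Of 106 cuticle protein genes 1 was called higher and 1 lower (1.39% and 0.923% of all genes). *Lcp1* was 907, 735 and 1016 in *loj* and 207, 156 and 114 in control (log2 fold change 2.51 ± 0.24, adjusted p = 0.00887, and 0.0529 with the block), and *Cpr47Ea* was at background in both groups. Of 11 heat shock and cold recovery genes *Fst* was higher (1143, 3343 and 1367 in *loj* and 174, 317 and 289 in control, log2 fold change 2.79, adjusted p = 0.0347), a call lost without *loj* replicate 2, *loj* replicate 3, control replicate 1, control replicate 2 or control replicate 3 (adjusted p up to 0.129), and of 15 genes of endoplasmic reticulum chaperones and stress sensors 0 were called, with *Hsc70-3* at 7829, 7311 and 6694 in *loj* and 6331, 6603.8 and 6706 in control. *Gp93* was 2317, 2610.2 and 2242 in *loj* and 1835, 1825 and 2085 in control (log2 fold change 0.32, adjusted p = 0.11). Of the 15 endoplasmic reticulum genes 12 were higher and 3 lower in *loj*, 7 and 0 of them without overlap (23.8% of all probe sets in either direction). Their median log2 fold change was 0.13, beside -0.02 over all genes.

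Of the lists described, that of humoral immunity had the highest median, with 14 of 42 genes higher, 0 lower (1.39% and 0.923% of all genes) and a median log2 fold change of 0.85, beside -0.02 over all genes. It held 9 calls with the block, 4 without control replicate 3, 5 without control replicate 1, 7 without *loj* replicate 2 and 9 without control replicate 2. Besides *pirk*, the receptor *PGRP-LC* of the Imd pathway was 772, 832 and 749 in *loj* and 427, 416 and 384 in control (log2 fold change 0.94, adjusted p = 0.00363), *dome*, the receptor of JAK/STAT signalling, 928, 1015 and 981 in *loj* and 479, 488 and 484 in control (log2 fold change 1.01, adjusted p = 0.00128), and the NF-kappaB factor *Rel* 3211, 2641 and 3629 in *loj* and 1408, 1266 and 1267 in control (log2 fold change 1.26, adjusted p = 0.00932). These 3 genes, like every call, did not overlap between groups. *PGRP-LC* and *dome* were stable, while *Rel* was not called without control replicate 3 (0.0507). The antifungal peptide gene *Drs* was 14288, 10654 and 9861 in *loj* and 3094, 1738 and 2424 in control (log2 fold change 2.28 ± 0.24, adjusted p = 0.0112), and *CecB* 2020.4, 1057 and 2832 in *loj* and at background in control (at least 8.12-fold higher). Their calls were lost without *loj* replicate 2 or control replicate 3 for *Drs* and without control replicate 1 for *CecB* (adjusted p up to 0.0548 and 0.0569). Peptide genes with larger spread did not pass, such as *DptB*, at 12232, 6997 and 5155 in *loj* and 1605, 334 and 4958 in control (adjusted p = 0.267). Control replicate 2 was lowest and control replicate 3 highest of the controls in *DptB*, *AttA* and *Mtk*, and *loj* replicate 1 was highest of the *loj* arrays. Of 13 hemocyte genes 0 were called.

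Whether a change was particular to head/thorax was tested as the difference of the genotype effect between tissues on all 12 arrays. It passed in 95 of 18769 probe sets (0.506%), among them 28 of the higher and 25 of the lower head/thorax calls. Of the head/thorax calls, 184 of 204 higher and 122 of 146 lower had the same sign in abdomen, and 56 were called there in the same direction. In abdomen 0.618% of probe sets were called higher and 0.256% lower. Of the genes named here 21 that were above background in head/thorax passed, 16 of them with a block for genotype and replicate number, and 12 also without each of the 12 arrays. *pirk* was higher in head/thorax (log2 fold change 2.60) and near 0 in abdomen (0.044, intensity 822, 761 and 727 in *loj* and 948, 721 and 607 in control abdomens, adjusted p of the difference 0.000458). *CG5966* behaved alike, at 2.93 in head/thorax and 0.17 in abdomen, where it was 711, 839 and 661 in *loj* and 635, 694 and 635 in control (adjusted p = 0.00384). *Ork1* was -1.06 in head/thorax and -0.17 in abdomen (adjusted p = 0.00271), *Cyp6t1* -1.19 in head/thorax and -0.14 in abdomen (adjusted p = 0.000658), and *Cyp4ac1* -1.04 in head/thorax and 0.30 in abdomen (adjusted p = 0.00513).

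Among the other genes, *Cyp9c1*, *UGP* and *E(spl)m5-HLH* changed in both tissues. *CR32865*, *CG43134*, *CG18586* and *CG31265* did not pass the limma test between *loj* and control in abdomen (adjusted p = 0.359, 0.818, 0.689 and 0.581). *Cyp9c1* fell by 2.90 in head/thorax and by 1.19 in abdomen on the log2 scale (adjusted p of the difference 0.000492). *UGP* fell by 4.36 in head/thorax and by 2.53 in abdomen on the measured values (adjusted p of the difference 0.000658), but its *loj* arrays were at background in both tissues and its control mean was 1488 in head/thorax and 295 in abdomen, so both decreases are lower bounds and their order cannot be read. *E(spl)m5-HLH* was higher by 5.77 in head/thorax and 4.00 in abdomen on the measured values (adjusted p of the difference 0.00312), with control at background in head/thorax. *CR32865* was lower in head/thorax (-1.83) and had 103.9, 119.6 and 76.2 in *loj* and 52.6, 50.9 and 85.9 in control abdomens (adjusted p of the difference 0.00386). *CG43134*, far brighter in abdomen, was 1843, 1816 and 1826 in *loj* and 1169, 1049 and 1114 in control head/thorax and 10493, 10229 and 10245 in *loj* and 10742, 10534 and 10604 in control abdomens (adjusted p of the difference 0.000458). *CG18586* and *CG31265* were among the 5 calls of lowest p for the difference with both head/thorax groups at background, *CG18586* at 49.3, 43.5 and 40.4 in *loj* and 2.42, 2.33 and 1.84 in control, and *CG31265* at -2.98, -0.515 and -2.8 in *loj* and 18.8, 17.4 and 16.6 in control. For *loj* itself (-5.04 in head/thorax and -4.69 in abdomen) and for *CG8768* (-3.46 in head/thorax and -4.04 in abdomen) the difference did not pass (adjusted p = 0.605 and 0.399), with *loj* arrays at background.

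**Figure D5:**
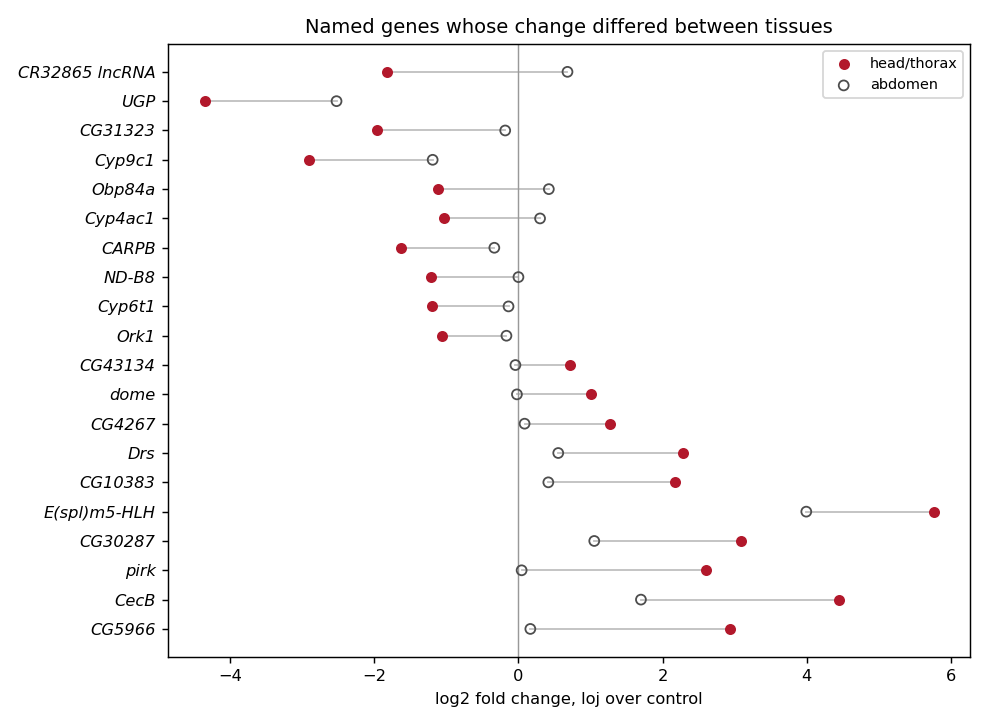
Log2 fold change (*loj* over control) in head/thorax (red, filled) and in abdomen (open) for 20 of the 21 named genes above background in head/thorax that passed the test of the difference, from the most negative to the most positive difference. *pirk*, *dome*, *CG43134* and *CG5966* lie near 0 in abdomen, and *UGP*, *Cyp9c1* and *E(spl)m5-HLH* changed in both tissues. *CG31323*, *Obp84a*, *ND-B8* and *CG30287* were at background in abdomen in both genotypes.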

How the data were processed

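RNA of head/thorax and of abdomen was hybridized to Affymetrix Drosophila Genome 2.0 arrays, 3 per genotype and tissue. The authors scanned the arrays with GCOS (version 1.2 in the submitters' processing notes) and deposited 1 table of probe set intensity values on a linear scale. The paper's own tests used values from dChip PM-MM, dChip PM and GCOS. Which of these measures the table holds, and its scaling, were not given in the sources. In head/thorax 1.73% of the deposited intensity values were below 0, which a log scale cannot hold. Of 18952 rows, 183 array controls were left out, and 18769 probe sets were tested.

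Values under 1 were raised to 1 before log2. The 6 head/thorax arrays were fitted in limma (version 3.58.1, R 4.3.3) with moderated variances that follow an intensity trend, and p-values were adjusted by Benjamini-Hochberg. The difference between tissues was tested as the interaction term on all 12 arrays. Summaries used Python 3.11.15 with numpy 2.4.6, scipy 1.17.1 and pandas 2.3.3. Samples are labelled as independent RNA extractions. The background level of an array was the 95th percentile of its 27 Bacillus subtilis control probe sets. The small number of arrays limits the precision.

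Gene names came from the platform annotation, in which 13646 probe sets had 1 symbol, 402 several and 4721 none. Of the last, 50 took a name from the study's own probe list. For counts over genes, the brightest probe set stood for each gene. Listed genes that the annotation does not hold were not analysed here.

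Named genes were the 15 lowest and 15 highest among calls made in every fit whose probe set had 1 symbol and at least 1 group above background, the 10 lowest and 10 highest mainly head/thorax calls with 1 symbol and the higher group above background, the 5 probe sets of lowest p for the difference between tissues, the called members of each list and the first 2 measured members of each list. The choice among calls made in every fit also required groups that do not overlap, which held for all 350 calls. Genes outside these rules are named with their values where a count or a list turns on them, and such genes were chosen after their values were seen. The members and lists were chosen with earlier results of these data known.

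The labels number the replicates alike in both genotypes. Among 8421 probe sets with a mean above background, deviations of same-numbered samples correlated at 0.13, 0.154 and 0.274, and at up to 0.119 between other numbers. Over all probe sets the values were 0.0483, 0.044 and 0.117. The pairing comes from the data alone, and blocked values (replicate number as a factor) stand beside results whose call they change. The procedure was tested on simulated data.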

Additional observations from a re-analysis of the deposited data

Results flagged for a closer look

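In 21 named genes above background in head/thorax the effect of *loj* differed between tissues by the interaction test. Values are the log2 fold change in head/thorax minus that in abdomen. It was -2.51 for *CR32865*, -1.83 for *UGP*, -1.78 for *CG31323*, -1.71 for *Cyp9c1* and -1.54 for *Obp84a*. It was -1.34 for *Cyp4ac1*, -1.29 for *CARPB*, -1.22 for *ND-B8*, -1.06 for *Cyp6t1* and -0.89 for *Ork1*. Positive differences were 0.76 for *CG43134*, 1.03 for *dome*, 1.19 for *CG4267*, 1.73 for *Drs*, 1.76 for *CG10383* and 1.77 for *E(spl)m5-HLH*. The largest of these were 2.03 for *CG30287*, 2.56 for *pirk*, 2.75 for *CecB*, 2.77 for *CG5966* and 5.98 for *CG30087*. With the block *Obp84a*, *ND-B8*, *dome*, *CG30287* and *CG30087* did not pass. These genes also failed in some of the 12 fits with 1 array left out. *CARPB*, *CG31323*, *Drs* and *CecB* passed with the block, but in only 11, 4, 2 and 2 of these 12 fits (adjusted p up to 0.0559, 0.1, 0.09 and 0.138). In abdomen *CG31323*, *Obp84a*, *ND-B8*, *CG30287* and *CG30087* were at background in both genotypes, so no effect could be measured there and the size of these differences cannot be read. *UGP*, *E(spl)m5-HLH*, *CecB* and *CG5966* had 1 genotype at background in head/thorax, and their differences are those of the measured values, not exact sizes.

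The 18S ribosomal RNA control probe set, which enters no comparison of genes, had a mean intensity of 3344 on the *loj* head/thorax arrays and was higher on each of them than on any control head/thorax array. *loj* replicate 1 was the highest. Its part in the results was not tested.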

How the results depend on the processing

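All 84 named calls kept their direction in the 16 alternative fits of the head/thorax comparison in which they were measured. The groups overlapped in none of the 350 calls, so leaving out an array or adding the block could not reverse a direction. The kept direction is therefore no further support. Of the 84, 37 were called in each leave-one-out fit and with the block, but 1 of the naming rules chose genes for this. Among all 350 calls it held for 37 higher and 30 lower probe sets. With replicate number as a block 77 probe sets were higher and 58 lower, against 204 and 146 without it, 62 against 95 differed between tissues, and 3 odorant-binding protein genes were lower and 9 immune genes higher, against 7 and 14. The higher count was 112 with intensities under 32 set to 32, 98 without an intensity trend and 312 with all 12 arrays in 1 fit. The Cyber-T style test gave 466 higher and 228 lower, and no fold threshold 340 and 305. With 1 array left out the counts ran from 50 to 261 higher and from 43 to 134 lower, the lowest without control replicate 1 and the highest without *loj* replicate 1. The difference between tissues ran from 54 (without control head/thorax replicate 1) to 133, lower odorant-binding genes from 1 (without control replicate 1) to 7, lower P450 genes from 3 (without control replicate 1) to 5, and higher immune genes from 4 (without control replicate 3) to 13.

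Mainly head/thorax probe sets were 43.8% of lower calls, 23.5% of higher calls and 14.1% of all. These shares were 31.5%, 30.9% and 13.6% by the *loj* arrays, 30.1%, 12.7% and 7.36% with means under background raised to it, 30.1%, 14.2% and 9.78% after scaling to a common median, 64.4%, 39.2% and 27.4% at 2 times and 26.7%, 7.35% and 7.61% at 8 times. Among probe sets above background in at least 1 group, higher calls hardly differed from all in some settings. Their shares were 13.98% and 13.69% with means under background raised to it. After scaling to a common median they were 15.05% and 14.88%. The causes were not tested. Probe sets at background on either side give only a bound on a change.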
